A study of Mus musculus with 6 samples.

Results

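The bone morphogenetic protein (BMP) ligands and their secreted antagonists were followed in embryonic mouse skin as 10 genes, chosen by symbol: the ligands Bmp2, Bmp3, Bmp4, Bmp5 and Bmp7 and the antagonists Nog, Grem1, Chrd, Fst and Sostdc1. All 10 were present among the 28000 genes of the count matrices. BMP ligands are secreted dimers that bind paired type I and type II receptors and act through Smad transcription factors, while the antagonists bind ligands outside the cell and keep them from the receptors. In developing skin the pathway is known for restraining hair placode formation in the epidermis and for signalling between placodes and the dermal condensates that gather beneath them.

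The data were 6 droplet single-cell RNA libraries of dorsolateral flank skin from CD1 embryos, each made from 3 to 4 pooled embryos, so that a library is the replicate and single embryos cannot be separated. The loss-of-function (LOF) embryos were PDGFRalphaCreER(Lo);beta-catfl/fl;mTmG, with 1 library at embryonic day (E) 14.5 and 1 at E13.5. In these a tamoxifen-inducible Cre under the fibroblast receptor gene Pdgfra deletes floxed beta-catenin (Ctnnb1), and mTmG is a reporter that switches from Tomato to GFP where Cre has acted. Controls were labelled WT, with 2 libraries at E14.5 and 2 at E13.5. Tamoxifen was given once at E11.5 to the LOF line and none is recorded for controls, so the drug and the genotype cannot be told apart.

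The libraries held 53461986 to 86446575 unique molecular identifiers (UMIs, each a counted transcript), and 40653 of 41594 barcodes were kept, with 8192 to 11323 UMIs per cell at the median. Any pair of libraries shared 45 to 103 barcodes. Cells were put into 10 classes by summed marker UMIs, fibroblasts by at least 15 UMIs of collagen genes (Col1a1, Col1a2, Col3a1) and keratinocytes by at least 10 of Krt5, Krt14, Krt15 and Epcam. Fibroblasts numbered 2843 to 4484 and keratinocytes 714 to 2106 per library. Levels are given as CPM, a gene's UMIs per 1000000 UMIs of one class and library. Genes outside the gates fitted both classes, since Lum reached 930 to 2370 CPM in fibroblasts and Trp63 reached 168 to 233 in keratinocytes. The controls were not uniform: eGFP read 348 and 318 CPM in LOF fibroblasts at E13.5 and E14.5, and 118 and 92.6 in the second control replicate of each stage, against 3.00 and 5.31 in the first. Ctnnb1 itself stood at 199 CPM in E14.5 LOF fibroblasts against 184 and 177 in the E14.5 controls, and at 247 in E13.5 LOF fibroblasts against 195 and 180 in the E13.5 controls. Reads of the 3′ end need not fall in the deleted exons, so this does not check the deletion. Axin2, a target of beta-catenin, read 7.77 CPM in E13.5 LOF fibroblasts with an eGFP UMI and 9.55 in those without, against 32.8 to 47.0 in the same divisions of the E13.5 controls. At E14.5 it read 31.0 and 29.3 in LOF, against 65.3 and 63.8 in control replicate 1 and 33.1 and 27.2 in control replicate 2. LOF thus lay below the first control in both divisions, and below the second only in cells with an eGFP UMI. Lef1 read 28.3 and 21.5 in the same E14.5 LOF divisions. It read 72.9 and 66.8 in E14.5 control replicate 1 and 55.6 and 37.8 in E14.5 control replicate 2. At E13.5 Lef1 read 3.86 and 5.54 in LOF against 18.5 to 37.4 in the controls. Because the controls differed, the LOF results are given with and without the second control replicates. Without them no stage and genotype has a replicate, so only effect sizes are given for that fit. The interaction with stage is not given without them, as it would have no spread left to test against. Libraries also fell into 3 groups that the labels do not name. Gm42418 read 1150 CPM in E14.5 LOF fibroblasts and 1737 in those of E14.5 control replicate 1, against 54.1 to 79.8 in the other 4 libraries. Gstp1 read 125 and 147 in the second control replicates against 22.1 to 32.0 in the other 4. E14.5 LOF was thus grouped with E14.5 control replicate 1, E13.5 LOF with E13.5 control replicate 1, and the second control replicates with each other, as an inferred batch.

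The genes lie on 8 chromosomes of the mouse genome (GRCm38, GENCODE annotation). Bmp2 spans chr2:133552159-133562885 on the plus strand, Grem1 chr2:113746164-113758646 and Bmp7 chr2:172868012-172940321 on the minus strand. Bmp4 lies at chr14:46383520-46390669, minus strand, Fst at chr13:114452290-114458951, minus strand, and Sostdc1 at chr12:36314139-36318452, plus strand. Bmp3 lies at chr5:98854415-98884396, Bmp5 at chr9:75775364-75900310 and Chrd at chr16:20733127-20742384, all on the plus strand, and Nog at chr11:89300638-89302332, minus strand. RefSeq promoter sequences (GRCm38.p6) were at hand for 4 of the 10 members. Those of Bmp4 and Grem1 are shown, since beta-catenin acts at DNA through Tcf/Lef factors. These 2 members were picked as lower in LOF fibroblasts in a fit without the second control replicates. That fit held no replicate of any stage and genotype, so the choice is not a result. The sequences shown are the 250 bases before the gene start, 5′ to 3′ on the gene's strand. Matches to the Tcf/Lef core letters CTTTGA or CTTTGT, on either strand, are in capitals.
Bmp4, chr14:46390670-46390919, minus strand: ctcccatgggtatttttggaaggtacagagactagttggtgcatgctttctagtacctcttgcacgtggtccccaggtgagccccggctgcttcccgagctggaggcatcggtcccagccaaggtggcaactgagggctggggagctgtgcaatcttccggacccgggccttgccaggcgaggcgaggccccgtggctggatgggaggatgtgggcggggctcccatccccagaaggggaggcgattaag
Grem1, chr2:113758649-113758898, minus strand: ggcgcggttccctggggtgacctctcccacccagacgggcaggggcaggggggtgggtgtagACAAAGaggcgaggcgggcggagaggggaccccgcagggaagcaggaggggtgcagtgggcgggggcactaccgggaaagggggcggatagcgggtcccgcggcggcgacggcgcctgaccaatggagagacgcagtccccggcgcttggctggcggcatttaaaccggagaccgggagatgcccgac
The Grem1 window held 1 match, to CTTTGT on the opposite strand, 188 to 183 bases before the start, and the Bmp4 window held none. Of 32851 promoter windows of that length, 27.6% held at least 1 match, so the match is a description of the letters only.

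Ligands and antagonists were divided between the layers of the skin. Keratinocytes carried most UMIs of Bmp7 (58.8% of those in kept cells) and of Sostdc1 (67.4%). Fibroblasts carried most of Bmp3 (83.4%), Bmp4 (75.8%), Bmp5 (73.4%), Grem1 (89.9%) and Chrd (67.6%). Bmp2 was split between fibroblasts (51.0%) and keratinocytes (33.0%), Fst between fibroblasts (39.4%) and keratinocytes (33.4%), and Nog between fibroblasts (41.1%) and muscle (33.5%). These shares follow the number of cells of a class as well as the level per cell.

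**Figure D1:**
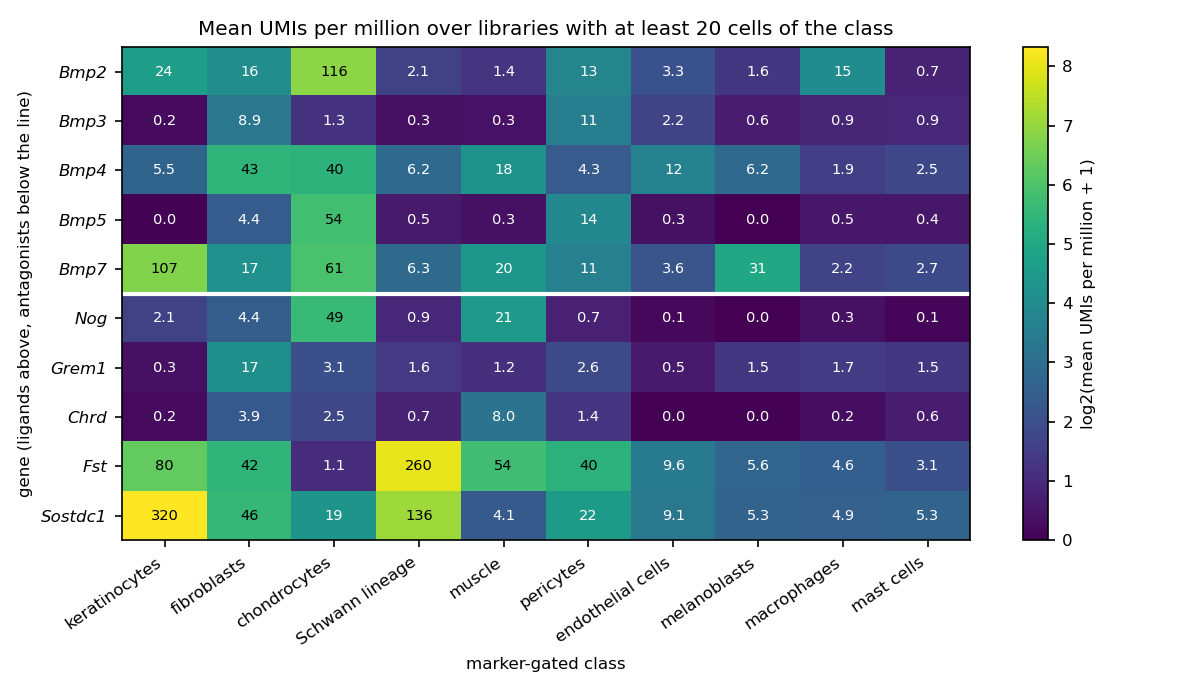
Mean CPM of each gene (rows, ligands above the white line and antagonists below) in each marker-gated class (columns), averaged over libraries with at least 20 cells of the class; the colour is log2 of the mean plus 1 and the printed number is the mean itself. Keratinocytes lead for Bmp7 and Sostdc1, fibroblasts for Grem1, chondrocytes for Bmp2, Bmp5 and Nog, and the Schwann lineage for Fst. For Bmp4, fibroblasts (mean 42.9 over 6 libraries) and chondrocytes (mean 40.5 over 2 libraries) overlap.

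Keratinocytes were compared with fibroblasts of the same library in all 6 libraries. Bmp7, a ligand of the group that also holds Bmp5, stood at 53.5 to 167 CPM in keratinocytes against 15.1 to 25.1 in fibroblasts. Sostdc1, a secreted protein that binds BMPs and Wnt co-receptors, stood at 173 to 545 against 25.1 to 58.7. Bmp4 showed the opposite, with 3.59 to 9.29 in keratinocytes against 29.0 to 55.1 in fibroblasts. None of these 3 ranges overlapped. The share of all genes without overlap was not computed, here or in the later comparisons between classes or between gated and other cells. With edgeR's quasi-likelihood test and Benjamini-Hochberg adjustment over all genes, Bmp7 was higher in keratinocytes (log2 fold change 2.57, SE 0.27, adjusted p = 5.55e-05) and so was Sostdc1 (2.84, SE 0.34, adjusted p = 1.23e-04). Bmp4 was lower in keratinocytes (log2 fold change -2.90, SE 0.20, adjusted p = 5.51e-06 in edgeR).

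Of the 10 members, 2 were called higher and 6 lower in keratinocytes, in a comparison where 75% of the 14902 genes tested were called, 34.1% higher and 40.9% lower. The other 5 called lower were Bmp3, an atypical ligand that can dampen BMP signalling, Bmp5, and the antagonists Nog, Grem1 and Chrd. Grem1, which encodes gremlin, held at most 11 UMIs in the keratinocytes of any library against 256 to 946 in fibroblasts. Nog, which encodes noggin, was the closest of the 5, at 1.32 to 3.39 CPM in keratinocytes against 3.30 to 5.36 in fibroblasts, and was lower in keratinocytes of all 6 libraries (log2 fold change -1.08, SE 0.27, edgeR adjusted p = 6.02e-03). The median log2 fold change was -1.99 over the 10 members and -0.07 over all genes tested.

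Bmp2 and Fst did not pass this test, and LOF went against the controls for Bmp2 at E13.5 and for Fst at both stages. Bmp2 read 6.18 CPM in E13.5 LOF keratinocytes against 14.8 in E13.5 LOF fibroblasts, while keratinocytes were the higher class in each of the other 5 libraries. Fst, which encodes follistatin, a binder of activins and of some BMPs, was higher in keratinocytes of all 4 controls and lower in those of both LOF libraries. In edgeR the log2 fold change was 0.65 for Bmp2 (SE 0.33, adjusted p = 0.106) and 1.40 for Fst (SE 0.75, adjusted p = 0.126). Without E13.5 LOF both were called (Bmp2 0.95, adjusted p = 3.13e-03; Fst 1.93, adjusted p = 0.0309; edgeR), as they were in the 4 controls alone.

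Among the wider pathway in the same comparison, where 34.1% of all genes were called higher and 40.9% lower, 7 of 8 BMP response genes (Id1 to Id4, Msx1, Msx2, Smad6 and Smad7) were lower in keratinocytes. Msx2 was higher (log2 fold change 3.40), and Msx1 was lower (-3.28). Of 12 other antagonists and binding proteins tested, 9 were called lower and 2 higher, Crim1 (1.93) and Twsg1 (0.36). Of 7 other family ligands tested, 6 were called lower and 1 higher. Receptors were mixed, with 4 of 8 called higher, among them Bmpr1b (2.93), a type I receptor, and 3 lower, among them Acvr1 (-1.65), another type I receptor.

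Beyond the 2 main classes, single members marked small populations. In chondrocytes, which reached 20 cells only in E13.5 LOF (76 cells) and E13.5 control replicate 1 (47 cells), Bmp2 read 112 and 120 CPM, Bmp5 39.3 and 69.4, and Nog 47.2 and 50.7. Outside chondrocytes Nog was highest in muscle, at 15.9 to 26.1 over the 6 libraries, above the 3.30 to 5.36 of fibroblasts without overlap. Chrd, which encodes chordin, stood at 2.81 to 12.05 in muscle and 3.23 to 4.74 in fibroblasts, which overlap. Bmp3 overlapped between pericytes (3.09 to 23.1) and fibroblasts (6.23 to 13.3). Bmp5 read 26.8 in pericytes of E14.5 LOF and 21.7 and 8.91 in those of the E14.5 controls, against 1.74, 3.09 and 1.62 in fibroblasts of the same libraries, which did not overlap. At E13.5 it read 18.3 in LOF pericytes against 7.46 in LOF fibroblasts. The 2 controls of that stage went the other way, with 4.56 and 3.09 in pericytes against 7.46 and 5.02 in fibroblasts. Those pericytes held only 5 UMIs and 1 UMI. Macrophages held Bmp2 at 10.5 to 20.4 in the 6 libraries, while mast cells of the same libraries held at most 2.54.

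In the Schwann lineage 2 antagonists were abundant and stood higher at the later stage. Sostdc1 read 254 and 201 CPM in the E14.5 controls against 28.2 and 34.1 in the E13.5 controls. The LOF libraries read 233 at E14.5 and 67.2 at E13.5. Fst read 421 and 346 in the E14.5 controls against 211 and 96.6 in the E13.5 controls, with 392 in E14.5 LOF and 95.2 in E13.5 LOF. For both genes every E14.5 library lay above every E13.5 library, from 96 to 194 Schwann lineage cells each. The share of all genes that did so was not computed for this class. In a fit chosen after these values were seen, Sostdc1 was called in the 4 controls (log2 fold change 2.80, SE 0.29, edgeR adjusted p = 0.0227), in a comparison that called 0.0223% of 8986 genes, and Fst was not (1.25, SE 0.36, adjusted p = 0.370). In muscle, of 6 members tested none was called by stage in a like fit, where edgeR called 0.152% of 10495 genes, 1256 had an unadjusted p under 0.05 and DESeq2 called 148.

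Keratinocytes past a placode gate, at least 3 summed UMIs of Dkk4, Shh, Lhx2, Edar and Fgf20, numbered 92 in E14.5 LOF and 93 and 108 in the E14.5 controls. They were the main keratinocyte source of Bmp2 per cell: 153 CPM in E14.5 LOF, 225 and 164 in the controls, against 14.8, 16.1 and 15.5 in the other keratinocytes of those libraries. Bmp7 was also higher, at 101, 112 and 152 in the gated cells against 55.4, 49.5 and 93.2 in the others. Sostdc1 was lower, at 66.7, 133 and 102 in the gated cells against 300, 408 and 583 in the others, and these values did not overlap. Fst stood at 48.7, 67.9 and 51.6 in the gated cells against 74.2, 119 and 99.9 in the others.

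With library as a block, edgeR gave Bmp2 a log2 fold change of 3.58 (SE 0.11, adjusted p = 6.77e-234) and Bmp7 one of 0.94 (SE 0.10, adjusted p = 4.48e-19). Sostdc1 gave -2.04 (SE 0.09, adjusted p = 4.20e-111 in edgeR) and Fst -0.78 (SE 0.12, adjusted p = 5.46e-10). Nog was at 0 UMIs in all 293 gated cells of the 3 libraries, against 1.503 CPM in the others, at least 1.70-fold lower when 3 UMIs over the 3 libraries are taken as the floor, and its call was lost under 5 alternatives. Bmp4 was not called (-0.62, adjusted p = 0.310 in edgeR). Among the 6 members tested 2 were called higher and 3 lower, where 21.8% of the 11851 genes tested were called. These p-values rest on 3 libraries whose cells were split in place, and measure how evenly the split came out in each.

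Of 7 response genes tested in placode-gate cells, 3 were called higher and 2 lower, beside 21.8% of all genes called. Msx2 (2.03), Smad7 (1.54) and Id3 (0.74) were higher on the log2 scale, and Id1 (-1.67) and Id2 (-1.12) were lower, all with edgeR. Msx2 is a homeobox gene, Smad7 an inhibitory Smad, and the Id genes encode inhibitors of helix-loop-helix factors. At E13.5 the gate took 11 cells in LOF and 101 and 57 in the controls, and Bmp2 there read 64.3 CPM in LOF against 106 and 109 in the controls.

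Suprabasal-gate keratinocytes, with at least 10 summed UMIs of the early differentiation keratins Krt1 and Krt10, numbered 163 in E14.5 LOF and 227 and 116 in the E14.5 controls. All 6 members tested were called lower there, where 51.4% of 11957 genes were called, 25.2% higher and 26.1% lower. Bmp2 read 2.75, 4.45 and 0.616 CPM in the gated cells against 22.5, 34.7 and 30.5 in the other keratinocytes (log2 fold change -3.27, SE 0.23, edgeR adjusted p = 3.31e-19). Sostdc1 read 28.4, 47.3 and 130 against 318, 464 and 597 (-2.88, SE 0.37, edgeR adjusted p = 0.0238), and Fst 13.7, 4.45 and 16.0 against 79.6, 140 and 106 (-3.48, SE 0.54, edgeR adjusted p = 0.0346). In all 3 genes the gated and other cells did not overlap, and the share of all genes that did so was not computed. Some calls were lost when a library was left out. Without E14.5 LOF edgeR gave adjusted p = 0.116 for Sostdc1 and 0.104 for Fst, without control replicate 1 Sostdc1 had 0.246 and Bmp4 0.0508, and without control replicate 2 Fst had 0.101. Without the filter on low counts Sostdc1 (0.0528) and Fst (0.0682) were lost too. Bmp7 (-1.46) and Bmp4 (-1.22) were called too, and Nog was again at 0 UMIs, at least 4.01-fold lower. As for the placode gate, the p-values rest on 3 libraries whose cells were split in place. Of 7 response genes tested, 2 were called higher in these cells and 3 lower, beside 51.4% of all genes called. Id1 (1.34) and Id2 (1.89) were the higher ones, and Id3 (-2.13) and Msx2 (-2.00) were among the lower. Each of these named genes was called in the other direction in placode-gate cells.

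Fibroblasts past a condensate gate, at least 3 summed UMIs of Sox2, Sox18 and Foxd1, numbered 59 in E14.5 LOF, 101 in E14.5 control replicate 1 and 18 in E14.5 control replicate 2, and the last was too small for the test. Tbx18, a condensate gene outside the gate, read 250, 294 and 499 CPM there against 43.1, 50.1 and 60.7 in the other fibroblasts. Bmp4 was the most distinct member: 348, 346 and 807 in the gated cells of the 3 libraries against 24.1, 32.5 and 46.0 in the others. Bmp7 read 127, 109 and 166 against 13.8, 14.3 and 24.1, again without overlap. Grem1 lay on the other side, at 1.87, 3.94 and 0 against 14.5, 27.9 and 11.9.

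Over E14.5 LOF and E14.5 control replicate 1, edgeR called Bmp4 (log2 fold change 3.61, SE 0.13, adjusted p = 7.76e-165), Bmp7 (3.05, SE 0.18, adjusted p = 2.04e-58) and Bmp3 (2.29, SE 0.24, adjusted p = 1.51e-19) higher. Grem1 (-2.85, SE 0.50, adjusted p = 2.21e-07 in edgeR) and Bmp2 (-2.20, SE 0.61, adjusted p = 2.96e-03) were lower, Bmp2 on 4 UMIs in the gated cells. Fst was called higher (1.12, SE 0.14, adjusted p = 2.61e-13 in edgeR), but its values of 112 and 180 in the gated cells against 102 and 50.002 in the others differ little in LOF, and the call was lost under 3 alternatives (adjusted p up to 0.887). In E14.5 control replicate 2, which was not in the test, Fst went the other way. It read 18.5 CPM in the gated cells, at the floor of 3 UMIs, against 27.5 in all fibroblasts of that library. Bmp5 was at 0 UMIs in the gated cells, at least 1.27-fold lower, and was not called. In all, 4 members of 10 were called higher and 2 lower, where 17.8% of 13407 genes were called, 7.95% higher and 9.9% lower. These p-values rest on only 2 libraries whose cells were split in place, and measure how evenly the split came out in each, not a spread between replicates. DESeq2 called 890 genes where edgeR called 2393.

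In the same cells Smad7 (2.51), Id4 (1.22), Id1 (0.65) and Id3 (0.44) were called higher on the log2 scale and Id2 lower, 5 of 7 response genes tested, beside 17.8% of all genes called. Of 13 other antagonists and binding proteins, 2 were higher, among them Smoc1 (3.84), and 5 lower, among them Bmper (-2.18), all with edgeR.

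**Figure D2:**
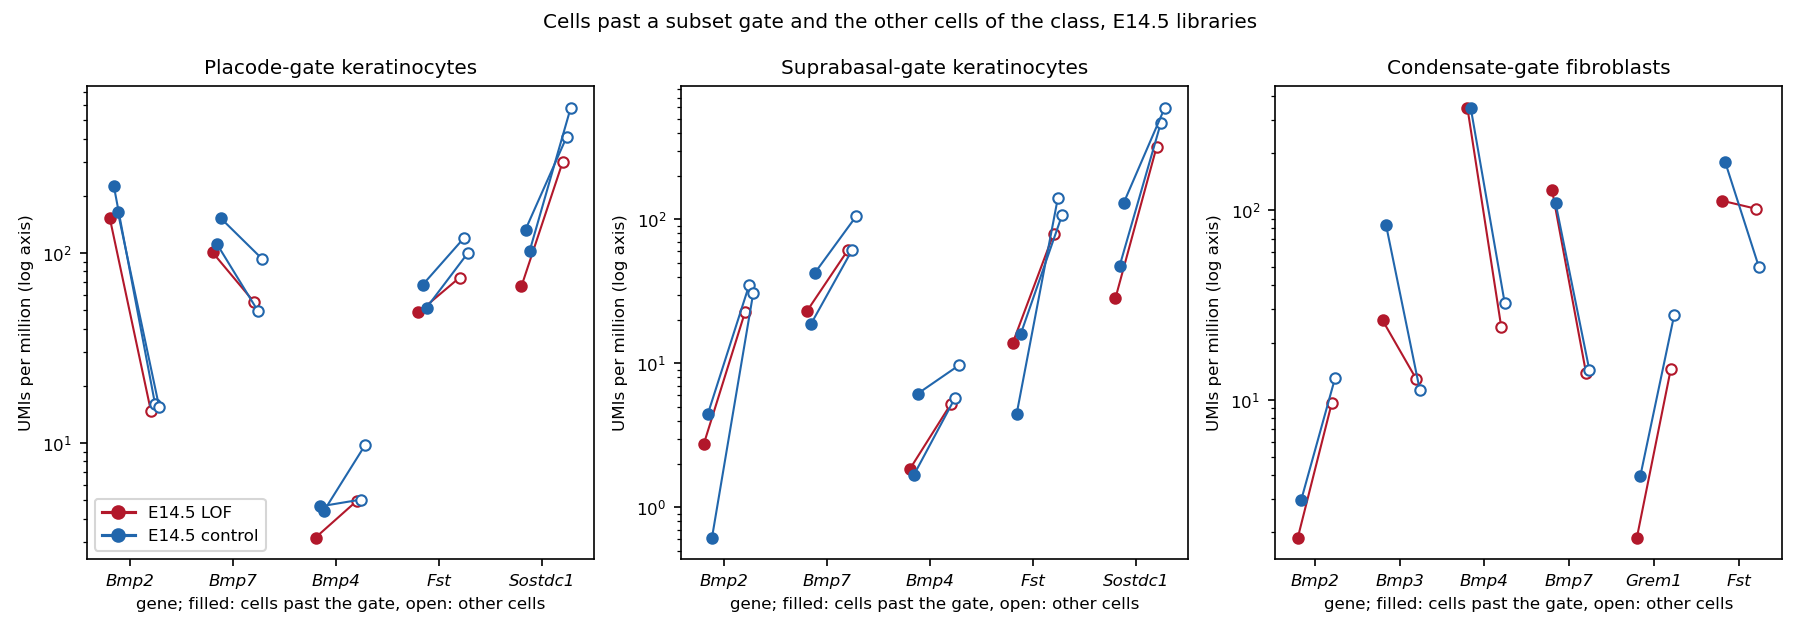
CPM (log axis) of selected members in cells past a subset gate (filled points) and in the other cells of the same class and library (open points, joined by a line), for E14.5 LOF (red) and E14.5 control libraries (blue) with at least 20 gated cells. Bmp2 is high in placode-gate keratinocytes (153 to 225) and Bmp4 in condensate-gate fibroblasts (348 and 346), while Sostdc1 is lower in both keratinocyte subsets.

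Stage was compared in the 4 controls, with E14.5 over E13.5. No member passed the edgeR test in fibroblasts, where 0.201% of 14407 genes did, or in keratinocytes, where 0.329% of 12478 did. At an unadjusted p under 0.05 edgeR held 2565 genes in fibroblasts, 3 members among them (Bmp2, Bmp5, Fst), and 1656 genes in keratinocytes, 2 members among them (Bmp7, Sostdc1). DESeq2 called 964 genes in fibroblasts, with the same 3 members, and 445 in keratinocytes, with Sostdc1.

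In fibroblasts, Fst read 53.8 and 27.5 CPM in the E14.5 controls against 13.4 and 3.37 in the E13.5 controls (log2 fold change 2.29, SE 0.65, edgeR adjusted p = 0.172, DESeq2 adjusted p = 2.35e-03). Bmp2 read 12.7 and 10.2 at E14.5 against 27.0 and 21.9 at E13.5 (-1.07, SE 0.24, edgeR adjusted p = 0.117, DESeq2 adjusted p = 0.0147). Bmp5 read 3.09 and 1.62 at E14.5 against 7.46 and 5.02 at E13.5 (-1.39, SE 0.39, edgeR adjusted p = 0.164, DESeq2 adjusted p = 0.0485). In each of the 3 genes the stages did not overlap. Over all 10 members 3 were higher without overlap at E14.5 and 2 lower, against 20.6% and 30% of 11581 genes with a mean of at least 2 CPM. Between the second replicates alone, which share the inferred batch, the log2 differences were 3.10 for Fst, -1.01 for Bmp2 and -1.51 for Bmp5.

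In keratinocytes, Sostdc1 read 391 and 545 CPM in the E14.5 controls against 173 and 196 in the E13.5 controls (log2 fold change 1.41, SE 0.27, edgeR adjusted p = 0.104, DESeq2 adjusted p = 1.35e-03). Bmp7 read 53.5 and 97.8 at E14.5 against 162 and 167 at E13.5 (-1.04, SE 0.35, edgeR adjusted p = 0.290). Neither gene overlapped between stages. Of 6 members with a mean of at least 2 CPM, 2 were higher without overlap and 2 lower, against 17.4% and 31.1% of 10863 genes. Between the second replicates alone the log2 differences were 1.60 and -0.64. Cells thinned to 3000 UMIs each moved the same way: 15.5% and 24.5% of E14.5 control keratinocytes held a Bmp7 UMI against 37.3% and 38.0% at E13.5, beside 47.1% and 59.7% against 85.5% and 78.1% without thinning. In macrophages, which carried little Bmp7, the thinned share was at most 2.27%.

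The stage difference itself was compared between the classes within libraries, in a fit chosen after the values were seen that called 5.15% of 14505 genes higher and 6.32% lower, and 3 members higher and 2 lower. Keratinocytes minus fibroblasts, it came to -1.55 for Bmp7 (SE 0.12, edgeR adjusted p = 2.44e-05) and 1.84 for Sostdc1 (SE 0.18, adjusted p = 9.14e-04), on the log2 scale. Bmp7 moved in opposite directions, since fibroblasts read 17.1 and 25.1 CPM at E14.5 against 15.3 and 16.4 at E13.5. Bmp2 (0.99, adjusted p = 1.02e-03) and Bmp4 (0.97, adjusted p = 0.0108) also differed in edgeR. Grem1 passed as well (adjusted p = 5.13e-03 in edgeR), on 1 UMI in each E14.5 control and 11 and 7 in the E13.5 controls in keratinocytes.

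**Figure D3:**
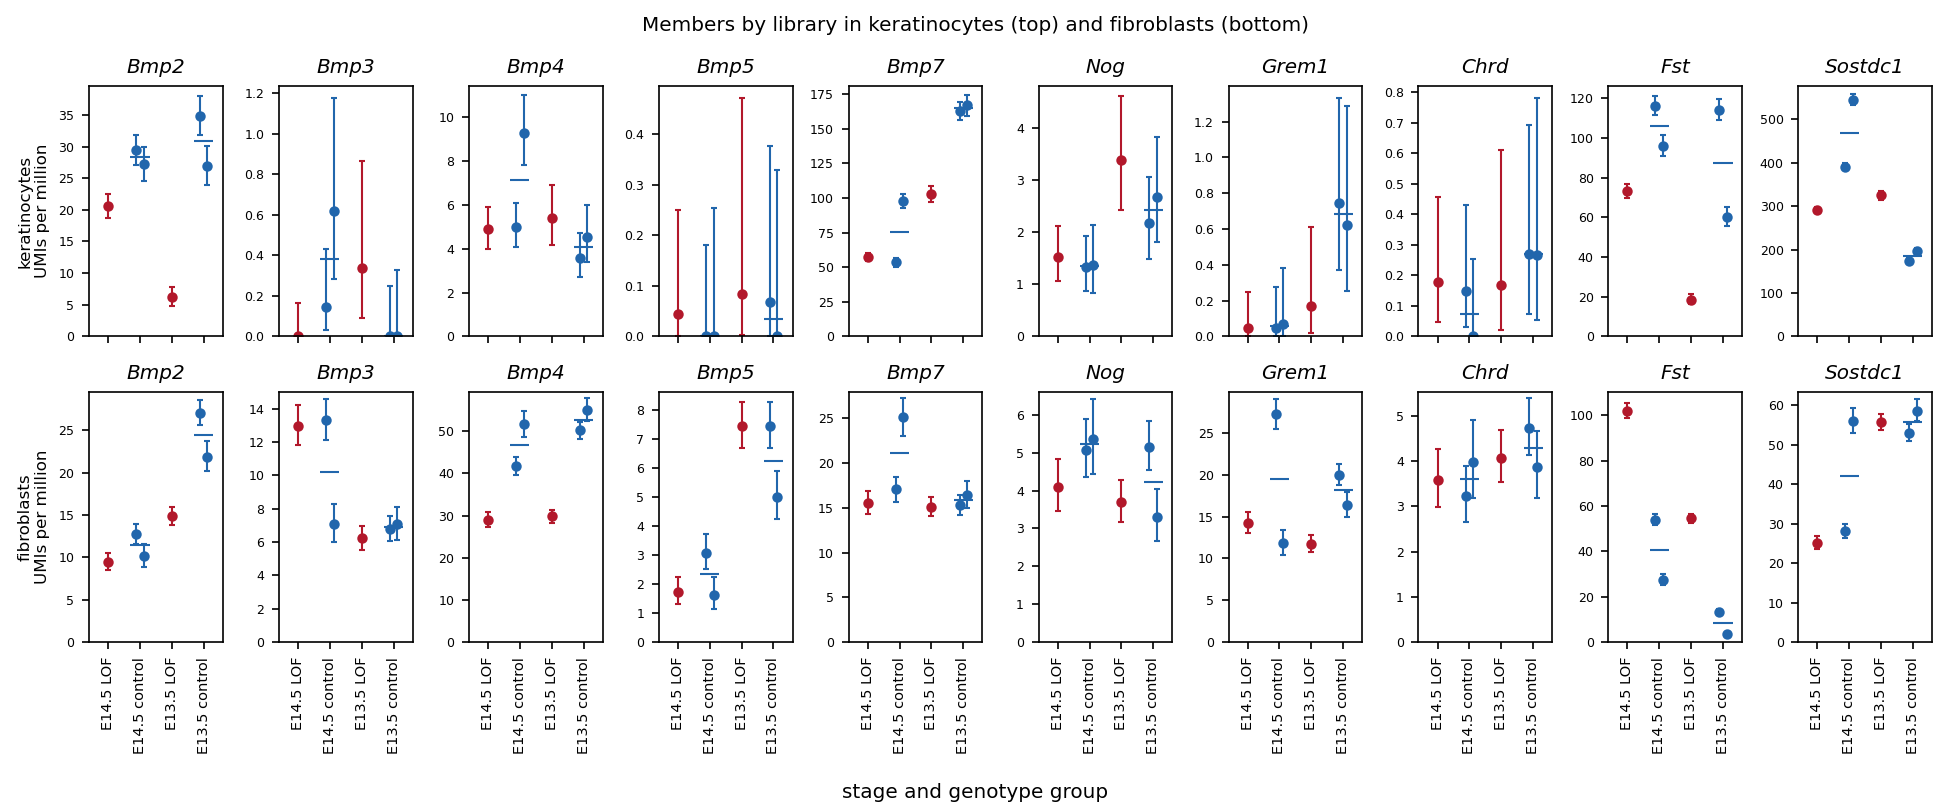
CPM of each member in keratinocytes (top) and fibroblasts (bottom), one point per library, for E14.5 LOF, E14.5 control, E13.5 LOF and E13.5 control; bars are exact Poisson 95% intervals, which cover counting error only, and horizontal lines are means of the 2 control libraries. Bmp4 in fibroblasts is lower in LOF at both stages, Fst in fibroblasts is higher, and Bmp2 and Fst in keratinocytes are lowest in E13.5 LOF.

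LOF was compared with control over both stages, with the same 4 control libraries as the stage comparison, so both kinds of difference share samples. In fibroblasts no member was called by edgeR, nor was any of the 14952 genes (0%), while 1227 genes had an unadjusted p under 0.05 and DESeq2 called 280. The members under 0.05 unadjusted were Bmp4, Fst and Bmp2. Bmp4 read 29.0 CPM in E14.5 LOF fibroblasts against 41.6 and 51.7 in the E14.5 controls, and 29.8 in E13.5 LOF against 50.2 and 55.1 in the E13.5 controls. Fst read 102 in E14.5 LOF against 53.8 and 27.5 in the E14.5 controls, and 54.5 in E13.5 LOF against 13.4 and 3.37 in the E13.5 controls. Both LOF libraries thus lay below both controls of their stage for Bmp4 and above both for Fst. At both stages the same held on the low side for 3 members (Bmp2, Bmp4, Bmp7), and for 15.5% of 11581 genes, and on the high side for 1 member, and for 19.6% of those genes. Taken by stage, 5 members lay below both controls and 1 above at E14.5 (29.2% and 32.6% of the genes), and likewise 5 below and 1 above at E13.5 (32.9% and 38%).

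Shares of cells moved with these levels once every fibroblast was thinned to 3000 UMIs. A Bmp4 UMI was held by 7.50% of E14.5 LOF fibroblasts against 10.1% and 10.8% in the E14.5 controls, and by 7.81% in E13.5 LOF against 12.5% and 14.7% in the E13.5 controls. For Fst the shares were 18.1% in E14.5 LOF against 12.6% and 6.29%, and 10.2% in E13.5 LOF against 3.52% and 1.37%. Unthinned, the Fst shares were 27.6% against 24.5% and 12.5% at E14.5, and 20.0% against 8.10% and 2.67% at E13.5. Macrophages, thinned alike, held a Bmp4 UMI in at most 0.901% of cells and an Fst UMI in 4.49% in E14.5 LOF against 1.82% in each E14.5 control, and the part of free RNA in the fibroblast shares was not tested.

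The log2 fold change of Bmp4 was -0.81 (SE 0.20, edgeR adjusted p = 0.387, DESeq2 adjusted p = 0.0471) and that of Fst 2.03 (SE 0.56, edgeR adjusted p = 0.418, DESeq2 adjusted p = 0.0140). Leaving out the second control replicates left no replicate of any stage and genotype. The log2 fold changes were then -0.62 for Bmp4, -0.83 for Grem1 and 1.47 for Fst. Grem1 read 14.3 CPM in E14.5 LOF fibroblasts against 27.2 and 11.8 in the E14.5 controls, and 11.7 in E13.5 LOF against 20.0 and 16.4 in the E13.5 controls. The first E14.5 control and the second lay on either side of LOF, so that its direction at E14.5 depends on which control is used.

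The fibroblasts of each LOF library were also divided by eGFP, which 47.8% of them held at E13.5 and 59.7% at E14.5. In the second control replicates, labelled WT, 54.5% held it at E13.5 and 46.4% at E14.5, against 3.12% and 5.48% in the first. Whether the division separates deleted from undeleted cells was not tested. Bmp4 read 29.7 CPM in cells with an eGFP UMI (Poisson 95% interval 27.4 to 32.1) and 28.0 in those without (25.2 to 31.0) at E14.5. At E13.5 it read 27.8 (25.8 to 30.0) and 31.7 (29.5 to 34.01). Fst read 103 (98.3 to 107) and 101 (95.5 to 106) at E14.5, and 57.7 (54.7 to 60.8) and 51.4 (48.6 to 54.3) at E13.5. A cell without an eGFP UMI may still carry the reporter at this depth, and these are values of single libraries with no test.

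**Figure D4:**
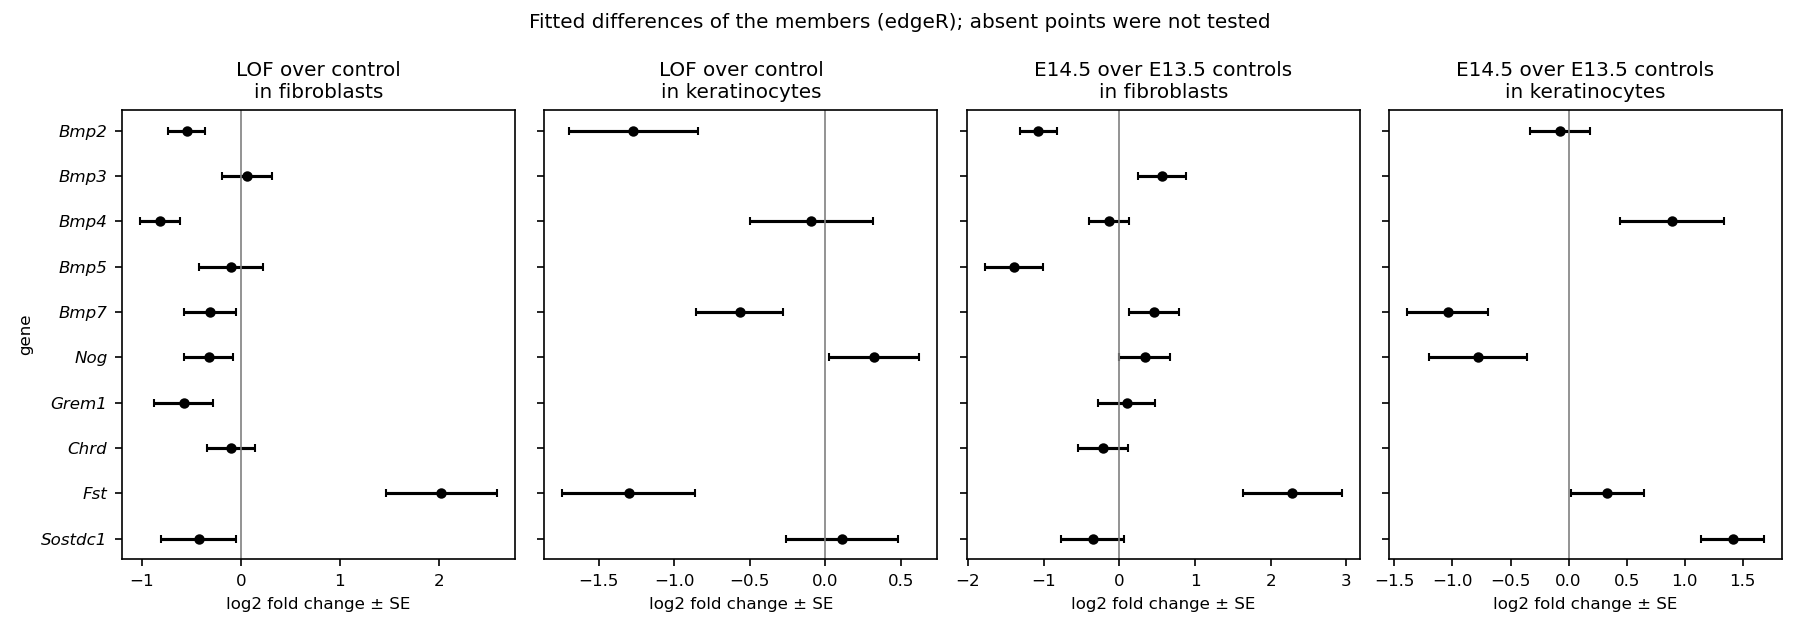
Log2 fold changes of the members with their standard errors from edgeR, for LOF over control (left panels) and for E14.5 over E13.5 controls (right panels), in fibroblasts and keratinocytes; members without a point were not tested. Fst in fibroblasts has the largest value in both fibroblast panels (2.03 and 2.29), and no point passed the adjusted threshold of 0.05.

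In keratinocytes, where eGFP read 1.03 to 4.40 CPM in the 6 libraries, no member and none of the 12751 genes (0%) was called for LOF by edgeR, with 218 genes under an unadjusted p of 0.05 and 4 called by DESeq2, none of them a member. Bmp2 read 20.6 CPM in E14.5 LOF against 29.4 and 27.2 in the E14.5 controls, and 6.18 in E13.5 LOF against 34.8 and 26.9 in the E13.5 controls. Fst read 73.1 in E14.5 LOF against 116 and 96.1, and 18.5 in E13.5 LOF against 114 and 60.4. Both genes were below both controls at both stages, as were 12.1% of 10863 genes, and Nog was above both, as were 10.1%. Taken by stage, 4 of 6 members lay below both controls and 1 above at E14.5 (31.9% and 28.2% of the genes), and 3 below and 3 above at E13.5 (31.4% and 32.1%). Their log2 fold changes were -1.27 (SE 0.43) and -1.30 (SE 0.44), each with an edgeR adjusted p of 0.986. Leaving out the second control replicates left no replicate of any stage and genotype. The log2 fold changes were then -1.25 for Bmp2, -1.48 for Fst and 0.47 for Nog.

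The placode gate moved with this at E13.5, taking 11 of 714 keratinocytes in LOF against 101 of 974 and 57 of 1019 in the controls. Outside the gate Bmp2 read 5.09 CPM in E13.5 LOF against 25.9 and 21.9 in the controls. At E14.5 the values outside the gate were 14.8 in LOF against 16.1 and 15.5. Placode cells with too few UMIs of the gate genes stay among the cells outside it. What part of the Bmp2 difference goes with the number of placode cells was not tested.

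Whether the LOF difference changed with stage was tested as an interaction, and edgeR called 0 of 15528 genes in fibroblasts (0%) and 0 of 13239 in keratinocytes (0%). There were 197 and 97 genes under an unadjusted p of 0.05, and DESeq2 called 5 and 1. In keratinocytes the members under 0.05 unadjusted were Bmp2 (1.84), Fst (1.68) and Sostdc1 (-1.54). Sostdc1 read 290 CPM in E14.5 LOF against 391 and 545 in the E14.5 controls, and 325 in E13.5 LOF against 173 and 196 in the E13.5 controls. The LOF library was below both controls at E14.5 and above both at E13.5. The LOF difference was also compared between keratinocytes and fibroblasts, in a fit added after the values were seen that called 1.33% of 14902 genes. No member was called by edgeR, 1831 genes had an unadjusted p under 0.05, among them Fst (-3.22, adjusted p = 0.370), and DESeq2 called 219.

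Genes whose levels ran most like a member's were sought over 44 class-by-library sums of at least 50 cells, as Pearson's r of log2(CPM + 1) among 6361 genes, a description in which sums of one library share cells and depth. Bmp3 ran with Sulf1 (0.91), Cd248 and Nov, and Nog with Capn6 (0.90), Chodl and Fgfr4. Sostdc1 ran with Acot1 (0.87), Ptprf and Wnt4, Bmp7 with Slc25a17 (0.87), and Fst with Vgll3 (0.83). Grem1 ran with Apela (0.82), Bmp5 with Ebf2 (0.83), Bmp4 with Usp29 (0.78) and Bmp2 with Itgb5 (0.77). Chrd, which reached at most 12.05 CPM, was left out. Among the members themselves the closest pairs were Nog and Chrd (0.78) and Bmp3 and Bmp5 (0.65).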

How the data were processed

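The deposited matrices hold raw UMI counts per gene and barcode, which the authors deposited after processing that named Cell Ranger, Seurat and mm10 (GRCm38), without versions, per the submitters' processing notes. Cells were required to hold 1000 or more UMIs and 500 or more genes, with mitochondrial UMIs not above 10%. A cell entered a class by summed marker UMIs and was left out when it passed gates that do not combine (732 cells, 431 of them past the fibroblast and the keratinocyte gate), which was the treatment of doublets; 4108 cells passed no gate. Counts were summed per library and class, given as CPM with exact Poisson intervals at 95% and a floor of 3 UMIs, and tested with edgeR 4.0.16 (robust quasi-likelihood, TMM, filterByExpr; R 4.3.3), with DESeq2 1.42.0 as an alternative. A member was called at an adjusted p under 0.05. Standard errors come from the F statistic of each fold change. Labels do not say that libraries come from separate litters, so p-values measure the spread between these libraries. In simulated counts of the same design, edgeR recovered 71.1% of 197 genes changed 4-fold for the condensate comparison and 99.5% of 191 for LOF in fibroblasts. The simulation gave every gene the same set variation, with no inferred batch and no difference among controls. These shares check the fitting only and do not measure what could be recovered from the real libraries, whose spread was not simulated. Members, lists and gates were chosen with earlier results of these data known. All 10 members are named, and other pathway genes were named only when they passed the test, though not all that passed are named. Fits of the stage and LOF differences between classes, and of stage in the Schwann lineage and muscle, were added after values were seen. Sequences come from RefSeq. Figures were drawn with Python 3.11.15 and matplotlib 3.10.9.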

Additional observations from a re-analysis of the deposited data

Results flagged for a closer look

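In keratinocytes, LOF lay on opposite sides of the controls at the 2 stages for Sostdc1 (interaction -1.54 on the log2 scale, not called by edgeR) and for Bmp4 (-1.01, not called). Bmp4 read 4.87 CPM in E14.5 LOF against 5.01 and 9.29 in the E14.5 controls, and 5.42 in E13.5 LOF against 3.59 and 4.55 in the E13.5 controls.

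Fst lay above both controls in LOF fibroblasts and below both in LOF keratinocytes at both stages. The difference between the classes was -3.22 on the log2 scale (SE 0.97, edgeR adjusted p = 0.370), in a fit that called 1.33% of 14902 genes.

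The stage difference of the controls was not the same in keratinocytes and fibroblasts for 5 members: Bmp2 (0.99), Bmp4 (0.97), Bmp7 (-1.55), Grem1 (-3.62) and Sostdc1 (1.84), as log2 differences, keratinocytes minus fibroblasts, each with an edgeR adjusted p under 0.05. The Grem1 value rests on few UMIs in keratinocytes. The inferred technical groups of libraries cannot be told apart from stage in the first replicates.

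The reporter transcript eGFP, which is no member, read 318 CPM in E14.5 LOF fibroblasts and 348 in E13.5 LOF fibroblasts, above every control. The second control replicates, labelled WT, read 92.6 at E14.5 and 118 at E13.5, and their labels name no reporter. The transcript tdTomato was present in keratinocytes of all 6 libraries. It read 62.3 CPM in E14.5 LOF against 39.6 and 307 in the E14.5 controls, and 990 in E13.5 LOF against 1038 and 827 in the E13.5 controls. In fibroblasts it read 4.89 in E14.5 LOF against 21.1 and 3.28 in the E14.5 controls. At E13.5 the fibroblast values were 3.30 in LOF against 5.56 and 7.94 in the controls. Every control thus held tdTomato UMIs, at a higher level in keratinocytes than in fibroblasts, and whether they come from mTmG was not tested.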

How the results depend on the processing

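Of 891 values of members under an alternative, 802 kept their direction without crossing the threshold, 29 newly passed it, 16 lost it, 5 moved and 39 changed sign. The 802 include values without an adjusted p that kept their direction. Values between the second replicates alone had no test, and were counted among the 802 when within the SE of the main value. The 5 that moved were such untested values, further off in the same direction. None of the 25 called member results changed sign, and 6 lost the call under some alternative, not all of them named above. The cause of these changes was not tested. Counts of called genes moved far more than the members did. For stage in fibroblasts (29 called), edgeR called 95 with DESeq2 size factors, 0 with library sizes alone, with gates taken singly or with gates doubled, and 723 without the filter, DESeq2 called 964, and leaving out a library gave 388 to 3742. For stage in keratinocytes (41 called) the counts were 95 with DESeq2 size factors, 0 with library sizes alone, 823 without the filter, 445 with DESeq2, 25 with doubled gates, and 66 to 2123 with a library left out. For LOF in fibroblasts (0 called) they were 2 with DESeq2 size factors, 5 without the filter, 280 with DESeq2, 2 without cells above 3 times the median UMIs, 374 with the inferred batch of 3 levels, 351 without the second control replicates, and 0 to 1 with a library left out. For LOF in keratinocytes (0) they were 4 with DESeq2, 9 with the inferred batch and 9 without the second control replicates. The interaction gave 5 with DESeq2 and 0 to 15 with a library left out in fibroblasts, and 1 and 0 to 10 in keratinocytes. Placode-gate calls (2584) were 1346 with DESeq2, 1267 over both stages and 1497 to 2324 with a library left out, and condensate-gate calls (2393) were 890 with DESeq2.

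Labels give controls of both stages the numbers 1 and 2 but no pairing, and deviations of same-numbered controls correlated at 0.34 in fibroblasts and 0.35 in keratinocytes over 2 pairs, which does not establish one. With the replicate block, stage calls were 856 in fibroblasts and 1051 in keratinocytes. Under the block the LOF value of Bmp3 in fibroblasts was -0.054 and that of Bmp4 in keratinocytes 0.32.

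Signs changed only in members that were not called, on the log2 scale. Between the second replicates alone, the stage value was 0.0047 for Bmp4, -0.37 for Grem1, 0.13 for Chrd and 0.030 for Sostdc1 in fibroblasts, and 0.14 for Bmp2 in keratinocytes. For LOF in fibroblasts Bmp5 was 0.032 with gates taken singly, and Bmp3 was -0.019 with doubled gates, -0.060 with the inferred batch and -0.059 without the second control replicates. For LOF in keratinocytes Bmp4 was 0.043 with gates taken singly, 0.28 with the inferred batch and 0.27 without the second control replicates. With a library left out, stage values in fibroblasts ranged from -0.49 to 0.51 for Grem1, -0.42 to 0.10 for Bmp4, -0.49 to 0.014 for Chrd and -1.07 to 0.13 for Sostdc1, and in keratinocytes from -0.23 to 0.094 for Bmp2 and -0.044 to 0.83 for Fst. LOF values ranged from -0.50 to 0.23 for Bmp5, -0.19 to 0.30 for Bmp3 and -0.20 to 0.011 for Chrd in fibroblasts, and from -0.73 to 0.81 for Sostdc1 and -0.60 to 0.41 for Bmp4 in keratinocytes. Interaction values ranged from -0.21 to 0.29 for Chrd, -0.15 to 0.37 for Bmp4, -0.51 to 0.048 for Nog, -0.76 to 0.0027 for Bmp7 and -0.24 to 0.76 for Grem1 in fibroblasts, and from -0.18 to 0.84 for Bmp7 in keratinocytes.

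Depth limits Bmp3, Bmp5, Grem1 and Chrd in keratinocytes, where no library reached 1 CPM.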
